A study of Drosophila melanogaster with 26 samples.

Results

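The transcripts described here encode 7 enzymes that store and release glucose in the fly. Glycogen synthase (*Glys*) and the branching enzyme *AGBE* build glycogen, and glycogen phosphorylase (*Glyp*) breaks it down. Phosphoglucomutase (*Pgm1*) and UDP-glucose pyrophosphorylase (*UGP*) handle the sugar phosphates between glycogen and glycolysis. *Tps1* makes trehalose and trehalase (*Treh*) cleaves it. The genes were chosen by name, with earlier results of these data known, and every probe set listed for them was taken. Each gene has 1 probe set, so the 7 genes are 7 of the 18769 non-control probe sets on the array, which name 11983 genes by probe sets listed for a single gene.

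Glycogen is a branched polymer of glucose that larvae keep in fat body and muscle. Trehalose, a disaccharide, is the main sugar of insect hemolymph. Both are made from UDP-glucose, which comes from glucose 1-phosphate, and glycogen phosphorylase returns glucose 1-phosphate, which phosphoglucomutase turns into glucose 6-phosphate for glycolysis. dHIFα, the oxygen-sensitive subunit of the hypoxia-inducible factor, is encoded by *sima*, and dERR is the single estrogen-related receptor of the fly, a nuclear receptor known as a regulator of carbohydrate metabolism in larvae.

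RNA was taken from pools of at least 10 whole late-L3 larvae and hybridized to Affymetrix Drosophila Genome arrays. The larvae, staged at 10 to 4 h before pupariation, had been kept for 6 h at 25°C in 4% oxygen (hypoxia, the H-treatment) or in normoxia. The 26 arrays fall into 8 groups: double-mutants, *dERR* mutants, *sima* mutants and *w1118* controls, each with 3 arrays in hypoxia and 3 in normoxia, except *w1118* in hypoxia with 5. The comparisons ask which transcripts respond to low oxygen, and which of these responses need dHIFα, dERR or both. The double-mutants were homozygous for *sima07607* and carried *dERR1* over *dERR2*, the same allele pair as the *dERR* mutants. The *sima* mutants were homozygous for *sima07607*, a P-element insertion in the first intron. The parents of all mutants carried a balancer marked with GFP, and the *sima* homozygotes were sorted in mid-L2 by the absence of GFP, while *w1118* is a separate stock. Whole larvae were used, so fewer cells of a type and less RNA per cell cannot be told apart.

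Each value is the log2 of a deposited intensity, and its precision is limited by how many arrays a group has. The *sima* transcript was between 4.97 and 6.15 on every *sima* and double-mutant array, against 7.62 to 8.36 on every *dERR* and *w1118* array. The *ERR* transcript was lower in *dERR* mutants than in *w1118* in hypoxia (4.35 against 5.23), but in double-mutants it was 4.82 in hypoxia and 4.95 in normoxia, against 5.23 and 4.89 in *w1118*, and it was not called lower. Where its probe set lies relative to the lesions is not given in the sources used here, so the *dERR* side of the double-mutant label was not checked by its own transcript. The 3 fat body storage protein transcripts measured of 6 listed averaged 13.74 to 14.27 on all arrays. These values are close to the largest on any array, 23239.92 before the log2, so they could miss a difference in fat body RNA. Fat body was not among the tissue means used as covariates below. The mean of 5 muscle transcripts measured of 8 listed was 10.16 to 10.68 in *dERR* in hypoxia, 10.26 to 11.10 in *dERR* in normoxia, 9.40 to 10.61 in double-mutants in hypoxia and 8.63 to 9.13 in *w1118* in normoxia. In *w1118* in hypoxia it was 10.27 on replicate 1 and 8.63 to 8.79 on the other 4 arrays. The mean of 10 testis transcripts was 8.44, 9.69, 9.48, 6.85 and 7.34 on the *w1118* hypoxia arrays, against 9.34 to 9.75 in normoxia. Replicate 1 of *w1118* in hypoxia and replicate 2 of *dERR* in normoxia, the array with the highest muscle mean, stand apart from their groups for several of the enzymes, so the main results are also given without them, a choice made after the values were seen.

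*Glys*, which adds glucose units to the glycogen chain, was at 7.82, 7.34 and 7.79 in double-mutants in hypoxia, against 7.49, 7.72 and 7.56 in normoxia. In *dERR* mutants it was at 7.94, 7.85 and 7.78 in hypoxia, against 7.87, 8.86 and 7.83 in normoxia. The double-mutant arrays overlap between oxygen levels, and so do the *dERR* arrays, where replicate 2 in normoxia is almost a full log2 unit above the other normoxic arrays. In *sima* mutants *Glys* was at 9.89, 9.48 and 9.63 in hypoxia, against 8.98, 8.70 and 8.75 in normoxia. In *w1118* it was at 9.84, 9.40, 9.17, 9.46 and 8.96 in hypoxia, against 8.63, 8.14 and 8.65 in normoxia. In both of these genotypes every hypoxic array is above every normoxic one. By group mean the order was *sima* hypoxia (9.67), *w1118* hypoxia (9.37), *sima* normoxia (8.81), *w1118* normoxia (8.48), *dERR* normoxia (8.18), *dERR* hypoxia (7.86), double-mutant hypoxia (7.65) and double-mutant normoxia (7.59). Only *sima* and *w1118* in normoxia are neighbors in this order whose arrays do not overlap.

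*AGBE*, which adds the branch points to glycogen, was at 6.63, 5.88 and 6.49 in double-mutants in hypoxia, against 6.25, 6.66 and 6.58 in normoxia. In *dERR* mutants it was at 7.23, 6.87 and 6.26 in hypoxia, against 7.12, 8.09 and 6.89 in normoxia. As for *Glys*, these groups overlap between oxygen levels and *dERR* normoxia replicate 2 is the high array. In *sima* mutants *AGBE* was at 8.86, 8.40 and 8.55 in hypoxia, against 7.59, 7.08 and 7.38 in normoxia. In *w1118* it was at 8.90, 8.23, 7.85, 8.29 and 7.89 in hypoxia, against 7.10, 6.78 and 7.0 in normoxia. The hypoxic arrays of *sima* and *w1118* are above their normoxic arrays and above every array of the double-mutants. The means ran from 8.60 ± 0.23 (SD, n = 3) in *sima* in hypoxia and 8.23 ± 0.42 (SD, n = 5) in *w1118* in hypoxia to 6.34 ± 0.40 (SD, n = 3) in double-mutants in hypoxia, and every pair of neighboring groups in the order overlaps.

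*Glyp*, which releases glucose 1-phosphate from glycogen, was at 9.16, 8.47 and 9.02 in double-mutants in hypoxia, against 8.47, 8.88 and 8.73 in normoxia. In *dERR* mutants it was at 9.42, 8.98 and 8.98 in hypoxia, against 9.35, 9.84 and 9.20 in normoxia. Neither genotype shows a separation by oxygen level. In *sima* mutants *Glyp* was at 11.21, 10.67 and 11.23 in hypoxia, against 10.27, 9.65 and 9.66 in normoxia. In *w1118* it was at 11.63, 10.32, 9.90, 10.07 and 10.10 in hypoxia, against 9.89, 9.24 and 10.08 in normoxia. The *sima* groups do not overlap, whereas the *w1118* groups do, and *w1118* hypoxia replicate 1 is more than a log2 unit above the other arrays of its group. The group means ran from 11.04 in *sima* in hypoxia to 8.69 in double-mutants in normoxia, with every neighbor in the order overlapping the next.

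*Pgm1*, which interconverts glucose 1-phosphate and glucose 6-phosphate, was at 8.78, 8.66 and 8.77 in double-mutants in hypoxia, against 7.30, 7.71 and 7.46 in normoxia. In *dERR* mutants it was at 7.65, 7.68 and 7.76 in hypoxia, against 8.13, 7.70 and 6.90 in normoxia. The double-mutant groups are apart, and the *dERR* arrays overlap. In *sima* mutants *Pgm1* was at 10.55, 10.17 and 10.36 in hypoxia, against 9.52, 9.39 and 9.57 in normoxia. In *w1118* it was at 11.27, 10.10, 10.00, 10.04 and 10.09 in hypoxia, against 9.73, 9.22 and 9.59 in normoxia. Both separate by oxygen level, and *w1118* hypoxia replicate 1 again stands above its group. The order of means falls into 4 levels whose arrays do not overlap. The highest held *sima* (10.36) and *w1118* (10.30) in hypoxia, and the next held *w1118* (9.51) and *sima* (9.49) in normoxia. Double-mutants in hypoxia (8.74) formed the third, above *dERR* in hypoxia (7.70), *dERR* in normoxia (7.58) and double-mutants in normoxia (7.49).

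*UGP*, which makes UDP-glucose from glucose 1-phosphate, had a dim probe set, with a mean over all arrays of 3.24 that lies at the 17.5th percentile of the probe sets tested. It was at 4.13, 4.10 and 3.66 in *sima* in hypoxia and at 3.64, 3.77 and 3.73 in *sima* in normoxia, against 3.27, 2.86, 3.16, 3.47 and 3.31 in *w1118* in hypoxia and 3.11, 2.97 and 2.73 in *w1118* in normoxia. Every *sima* array is above every *w1118* array. The double-mutants were at 2.82, 3.02 and 2.76 in hypoxia, against 3.33, 2.84 and 2.81 in normoxia, and the *dERR* mutants at 3.20, 3.67 and 3.20 in hypoxia, against 3.11, 2.82 and 2.77 in normoxia. How much of these signals is background was not measured.

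*Tps1*, the enzyme of trehalose synthesis, was at 8.67, 7.86 and 8.14 in double-mutants in hypoxia, against 6.16, 7.15 and 6.31 in normoxia. In *dERR* mutants it was at 8.03, 7.86 and 7.87 in hypoxia, against 8.12, 9.10 and 7.16 in normoxia. The double-mutant groups are apart and the *dERR* groups overlap, and the normoxic double-mutants, with a mean of 6.54 ± 0.53 (SD, n = 3), are below every array of the other 7 groups. In *sima* mutants *Tps1* was at 8.74, 8.76 and 9.46 in hypoxia, against 8.10, 8.34 and 8.57 in normoxia, with every hypoxic array above every normoxic one. In *w1118* it was at 9.76, 7.91, 7.61, 8.03 and 8.54 in hypoxia, against 7.87, 8.32 and 8.02 in normoxia. The spread within *w1118* in hypoxia, an SD of 0.85, was larger than the difference of its mean (8.37) from that of any other hypoxic group (7.92 to 8.99).

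*Treh*, which splits trehalose into glucose, was at 8.71, 8.04 and 8.35 in double-mutants in hypoxia, against 8.71, 8.80 and 8.78 in normoxia. In *dERR* mutants it was at 9.14, 8.57 and 8.49 in hypoxia, against 8.70, 8.68 and 8.73 in normoxia. In *sima* mutants it was at 8.06, 8.19 and 8.17 in hypoxia, against 8.18, 8.12 and 7.99 in normoxia. None of the mutant genotypes separates by oxygen level. In *w1118* *Treh* was at 8.14, 7.77, 7.72, 7.53 and 7.22 in hypoxia, against 8.62, 8.41 and 8.5 in normoxia, with every hypoxic array below every normoxic one. By group mean, double-mutants in normoxia were highest (8.76), then *dERR* in hypoxia (8.73) and in normoxia (8.70), and *w1118* in hypoxia was lowest (7.68).

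**Figure D1:**
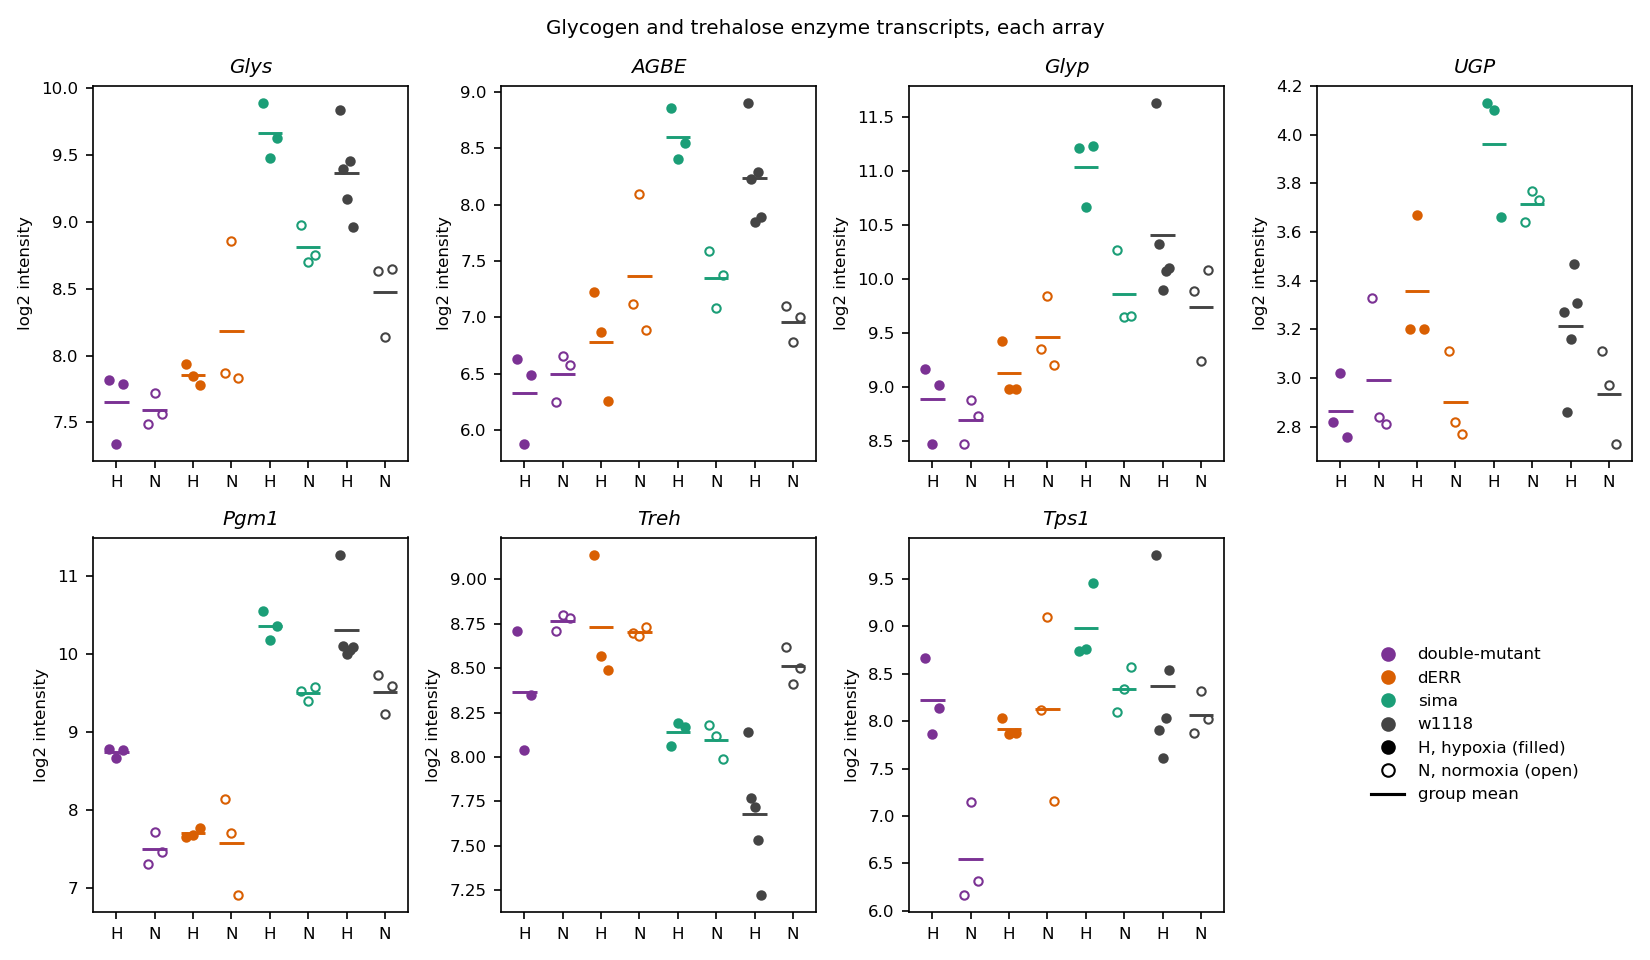
Log2 intensity of each of the 7 transcripts on each of the 26 arrays (y axis, 1 panel a gene, each with its own scale), by genotype and oxygen level (x axis), with hypoxia filled, normoxia open and a line at the group mean. *Glys*, *AGBE*, *Glyp* and *Pgm1* are highest in hypoxic *sima* and *w1118* larvae, while *Treh* is lowest in hypoxic *w1118* larvae.

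In *w1118* larvae, H-treatment raised the transcripts of *Glys* and *AGBE*, which build glycogen, and lowered that of trehalase. A call needed an adjusted p under 0.01 in limma and a difference of 1.5-fold or more, and 3 of the 7 enzymes met it, against 5.15% of all probe sets. The hypoxic and normoxic arrays did not overlap for 4 of the 7, against 20.6% of all probe sets. *AGBE* rose 2.41-fold, by 1.27 on the log2 scale (SE 0.27, adjusted p = 0.00246), and *Glys* by 0.89 (SE 0.21, adjusted p = 0.00558), which is 1.85-fold. *Treh* fell by 0.84 (SE 0.17, adjusted p = 0.00149), which is 1.78-fold. The other 4 were not called, with changes of 0.79 for *Pgm1* (adjusted p = 0.0385), 0.67 for *Glyp* (adjusted p = 0.148), 0.30 for *Tps1* (adjusted p = 0.637) and 0.28 for *UGP* (adjusted p = 0.230). The median change of the 7 was 0.67, beside 0.06 for all probe sets. Without *w1118* hypoxia replicate 1 and *dERR* normoxia replicate 2, *AGBE* (1.10), *Glys* (0.77) and *Treh* (-0.95) were again the 3 called. The testis transcripts had a median change of -1.21 in this comparison, and with the muscle, midgut and testis means as covariates the same 3 were called, at 1.21 for *AGBE*, 0.83 for *Glys* and -0.68 for *Treh*.

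These calls are close to the threshold. That of *Glys* was lost without any 1 of *w1118* normoxia replicates 1, 2 and 3 or *w1118* hypoxia replicates 1, 2 and 4 (0.73 to 0.98, adjusted p from 0.0112 to 0.0568), that of *AGBE* without *w1118* normoxia replicate 2 or 3 (1.18 to 1.29), and that of *Treh* without *w1118* normoxia replicate 1 (-0.78, adjusted p = 0.0142). In a fit of the 8 *w1118* arrays alone, limma called 0 of the 7, against 531 of all 18769 probe sets. In that fit 4 of the 7 had an unadjusted p under 0.05, and the lowest adjusted p was 0.0144. SAM, which sets its threshold by permuting the arrays of the pair of groups, called 3. It had 56 splits of the arrays here and only 20 where both groups have 3 arrays, which limits its estimate of false calls. The share of all probe sets that SAM called is not given here.

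In *sima* mutants, the same 2 glycogen synthesis enzymes were higher in hypoxia by nearly the same amounts, but limma called 0 of the 7, against 3.6% of all probe sets. The changes were 1.26 for *AGBE* (SE 0.30, adjusted p = 0.0103), 1.18 for *Glyp* (SE 0.34, adjusted p = 0.0350), 0.86 for *Glys* (SE 0.23, adjusted p = 0.0236) and 0.86 for *Pgm1* (SE 0.28, adjusted p = 0.0601). These 4 had an unadjusted p under 0.05, and the same 4 were called by SAM, from 20 splits of the arrays. Leaving out *w1118* hypoxia replicate 1 and *dERR* normoxia replicate 2, neither of which is a *sima* array, left the 4 changes as they were and reduced the SE estimated over all groups, and all 4 were then called. The share of all probe sets called in that fit is not given, and the 3.6% is that of the model of all arrays. *Tps1* had a change of 0.65 (adjusted p = 0.501), *UGP* of 0.25 and *Treh* of 0.04. For 5 of the 7 every hypoxic array was above every normoxic one, while groups did not overlap for 26.8% of all probe sets. The median of the 7 was 0.86, beside 0.02 for all probe sets. The muscle mean was 8.96 to 10.11 on the hypoxic *sima* arrays, against 8.66 to 9.63 in normoxia. With the muscle, midgut and testis means as covariates in limma, *AGBE* (1.0, adjusted p = 0.00206) and *Glyp* (0.78, adjusted p = 0.0025) were called. *Glys* (0.66, adjusted p = 0.0113) and *Pgm1* (0.64, adjusted p = 0.0621) were not.

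Without *w1118* hypoxia replicate 1 alone, 3 were called in *sima* (*AGBE*, *Glyp* and *Pgm1*), and without *dERR* normoxia replicate 2 alone, 2 (*Glys* and *AGBE*). *AGBE* was also called without *dERR* normoxia replicate 3, *dERR* hypoxia replicate 1 or 3, or double-mutant hypoxia replicate 2.

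In *dERR* mutants, none of the enzymes responded at the threshold. Limma called 0 of the 7, against 0.389% of all probe sets, with 1 at an unadjusted p under 0.05 (*UGP*, 0.45, adjusted p = 0.208), and SAM called 0. *UGP* was also the 1 transcript of 7 whose groups did not overlap, against 14.1% of all probe sets. *AGBE* (-0.58, SE 0.30), *Glyp* (-0.34, SE 0.34), *Glys* (-0.33, SE 0.23) and *Tps1* (-0.21, SE 0.45) had negative changes, and *Pgm1* (0.12, SE 0.28) and *Treh* (0.03, SE 0.19) were near 0. The median of the 7 was -0.21, beside 0.01 for all probe sets. Without *dERR* normoxia replicate 2 and *w1118* hypoxia replicate 1 the changes were -0.22 for *AGBE* (SE 0.25), -0.15 for *Glyp* (SE 0.26), 0.01 for *Glys* (SE 0.18) and 0.28 for *Tps1* (SE 0.33).

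In double-mutants, *Pgm1* rose by 1.25 in hypoxia (SE 0.28, adjusted p = 0.00492, limma), which is 2.38-fold, and was the only 1 of the 7 called, against 4.72% of all probe sets. Groups did not overlap for 2 of the 7, *Pgm1* and *Tps1*, against 25.1% of all probe sets. *Tps1* had the largest change, 1.68 (SE 0.45, adjusted p = 0.0187), and was called by SAM and without the 2 arrays that stand apart (adjusted p = 0.000624). The enzymes that build and break glycogen were not called, with changes of 0.06 for *Glys* (95% interval -0.43 to 0.54), -0.16 for *AGBE* (-0.79 to 0.46) and 0.19 for *Glyp* (-0.52 to 0.91). *Treh* had a change of -0.40 (adjusted p = 0.227) and *UGP* of -0.13. The call of *Pgm1* was lost without any 1 of 5 of the 6 double-mutant arrays, all but normoxia replicate 2 (1.15 to 1.29, adjusted p from 0.0134 to 0.0330). *Tps1* was called as well without *w1118* hypoxia replicate 1, *dERR* normoxia replicate 2 or *dERR* normoxia replicate 3. The muscle mean was 9.40 to 10.61 in these hypoxic arrays, against 8.78 to 10.10 in normoxia, and with the muscle, midgut and testis means as covariates *Pgm1* had a change of 0.79 (adjusted p = 0.05) and was not called. In that fit *Tps1* was at 1.07 (adjusted p = 0.08), *Treh* at -0.71 (adjusted p = 0.0128), *AGBE* at -0.66 (adjusted p = 0.0818), *Glyp* at -0.31 and *Glys* at -0.29.

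**Figure D2:**
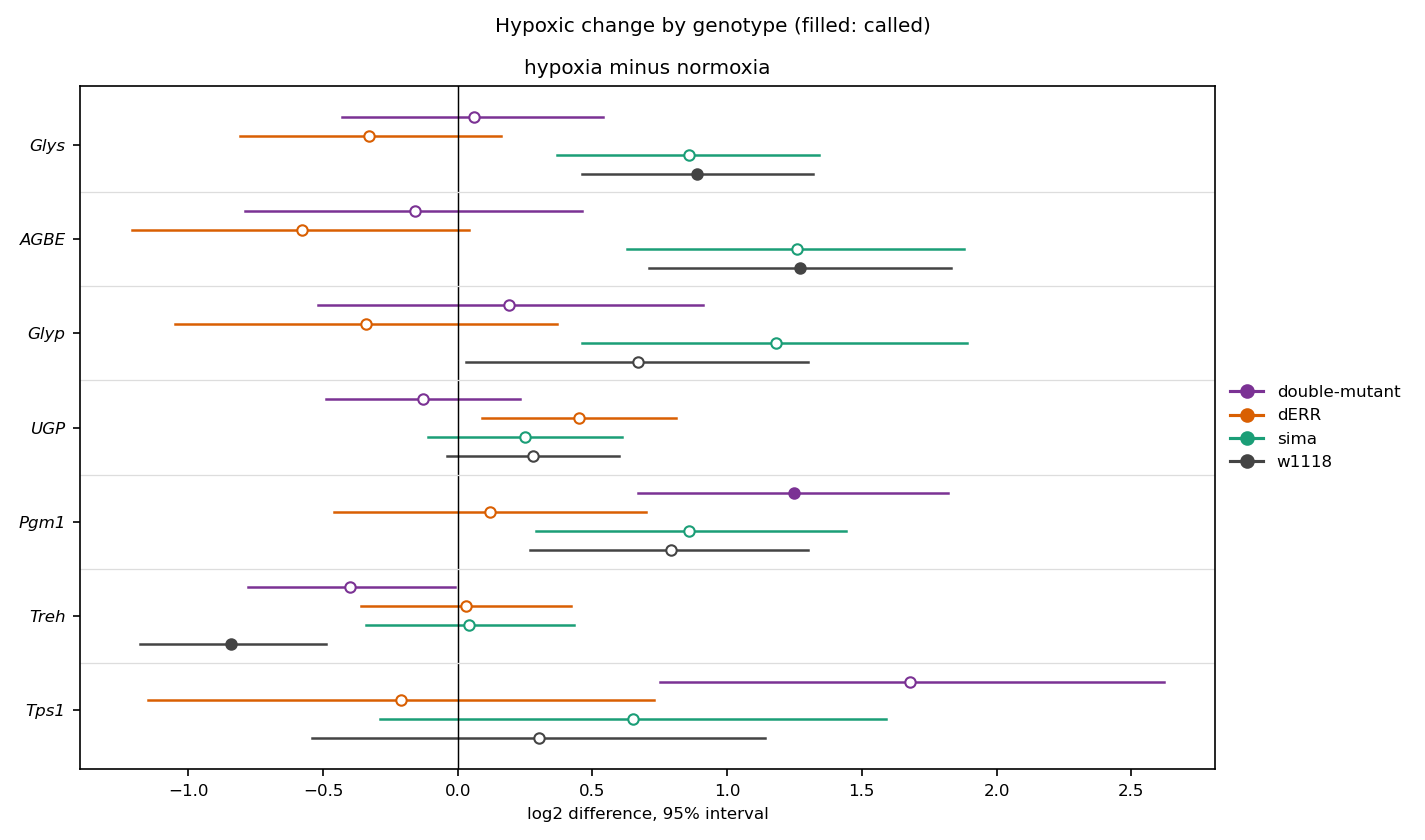
Log2 difference of hypoxia minus normoxia (x axis) for each transcript (y axis) in double-mutants, *dERR*, *sima* and *w1118*, with limma's 95% interval and filled points for calls. *Glys*, *AGBE* and *Glyp* lie between 0.67 and 1.27 in *sima* and *w1118* and between -0.58 and 0.19 in double-mutants and *dERR*.

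Whether a mutant's hypoxic change differs from that of *w1118* was tested as an interaction. For *dERR*, limma called 0 of the 7, against 0.107% of all probe sets, and 4 had an unadjusted p under 0.05. The difference in change was largest for *AGBE*, at -1.85 (SE 0.40, adjusted p = 0.0441), followed by *Glys* at -1.22 (SE 0.31, adjusted p = 0.0973), *Glyp* at -1.0 (SE 0.46, adjusted p = 0.502) and *Treh* at 0.87 (SE 0.25, adjusted p = 0.165). Without the 2 arrays that stand apart, *AGBE* was at -1.32 (adjusted p = 0.0766) and *Glys* at -0.76 (adjusted p = 0.165). With the muscle, midgut and testis means as covariates, *AGBE* was at -1.71 (adjusted p = 0.00213) and was called.

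For double-mutants limma called 0 of the 7 interactions, against 0.48% of all probe sets, with 3 at an unadjusted p under 0.05, namely *AGBE* (-1.43, SE 0.40, adjusted p = 0.0983), *Glys* (-0.83, adjusted p = 0.245) and *Tps1* (1.38, adjusted p = 0.321). For *sima* it called 0 of the 7, against 0.314%, with 1 at an unadjusted p under 0.05, which was *Treh* (0.88, SE 0.25, adjusted p = 0.123). The interaction of *sima* was -0.03 for *Glys* (95% interval -0.68 to 0.62) and -0.01 for *AGBE* (-0.85 to 0.82). In the model of 8 groups, a difference in response from *w1118* was therefore not shown at the threshold for any of the 7 enzymes.

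Set against *w1118* larvae in hypoxia, *dERR* mutants had less transcript of *Glys*, *AGBE*, *Glyp* and *Pgm1*, and more of *Treh*. Limma called 5 of the 7, against 6.16% of all probe sets. *Pgm1* was lower, with a log2 difference of -2.60 (SE 0.25, adjusted p = 8.49e-07), which is 6.08-fold, *Glys* at -1.51 (SE 0.21, adjusted p = 6.86e-05), *AGBE* at -1.44 (SE 0.27, adjusted p = 0.00104) and *Glyp* at -1.28 (SE 0.31, adjusted p = 0.00641). *Treh* was higher by 1.06 (SE 0.17, adjusted p = 0.000254), which is 2.08-fold. For these 5 of the 7 the *dERR* arrays did not overlap the *w1118* arrays, against 17.2% of all probe sets. *Tps1* differed by -0.45 (adjusted p = 0.484) and *UGP* by 0.14 (adjusted p = 0.594). The median of the 7 was -1.28, beside 0.01 for all probe sets.

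All 5 were also called without *w1118* hypoxia replicate 1 and *dERR* normoxia replicate 2, at -2.36 for *Pgm1*, -1.39 for *Glys*, -1.28 for *AGBE*, -0.97 for *Glyp* and 1.18 for *Treh*. The muscle mean was 10.16 to 10.68 on these *dERR* arrays, against 8.63 to 10.27 in *w1118*. The midgut mean was 12.27 to 12.60 in *dERR*, against 11.54 to 12.14 in *w1118*, and the hemocyte mean was 8.47 to 9.5 in *dERR*, against 7.35 to 9.18 in *w1118*. Hemocyte markers were not among the covariates, and their part was not tested. With the muscle, midgut and testis covariates the differences were -3.02, -1.95, -1.98 and -2.26 for *Pgm1*, *Glys*, *AGBE* and *Glyp*, all called, and 0.85 for *Treh* (adjusted p = 0.0198), which was not. Of the *w1118* hypoxia arrays only replicate 1, at 10.27, was in the muscle range of *dERR*, and the others were at 8.63 to 8.79. Muscle level and genotype are thus largely tied in this comparison, and the covariates cannot tell them apart. *Glyp* lost its call without *w1118* hypoxia replicate 2 or *dERR* hypoxia replicate 2 or 3 (-1.30 to -1.20), and *AGBE* without *dERR* hypoxia replicate 3 (-1.18, adjusted p = 0.0153). In a fit of these 8 arrays alone *Glys* and *Pgm1* were called, and *AGBE*, *Glyp* and *Treh* were not. That fit called 200 of all 18769 probe sets.

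Double-mutants in hypoxia differed from *w1118* in the same 5 transcripts, against 6.05% of all probe sets called. Both comparisons use the same *w1118* arrays. *AGBE* was lower, at -1.89 (SE 0.27, adjusted p = 6.14e-05), *Glys* at -1.72 (SE 0.21, adjusted p = 1.01e-05), *Pgm1* at -1.56 (SE 0.25, adjusted p = 0.000202) and *Glyp* at -1.52 (SE 0.31, adjusted p = 0.00182), and for these 4 of the 7 the groups did not overlap, against 16.1% of all probe sets. *Treh* was higher by 0.69 (SE 0.17, adjusted p = 0.00699), although its groups overlap. *UGP* differed by -0.35 (adjusted p = 0.145) and *Tps1* by -0.15 (adjusted p = 0.875). The median of the 7 was -1.52, beside -0.01 for all probe sets.

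The call of *Treh* was lost without any 1 of *w1118* hypoxia replicates 2 to 5 or double-mutant hypoxia replicates 1 and 3 (0.52 to 0.71, adjusted p from 0.0115 to 0.0868), and with the tissue covariates it was at 0.40 (adjusted p = 0.0903). SAM did not call it either. *Glyp* lost its call without double-mutant hypoxia replicate 2 (-1.31, adjusted p = 0.0135). In a fit of these 8 arrays alone *Glys* and *AGBE* were called, and *Glyp*, *Pgm1* and *Treh* were not. That fit called 222 of all 18769 probe sets.

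In *sima* mutants in hypoxia, the group means of *Glys*, *AGBE* and *Glyp* were above those of *w1118*, but none of them was called. Limma called 1 of the 7, against 4.56% of all probe sets, and it was *UGP*, which was higher by 0.74 (SE 0.16, adjusted p = 0.00285), or 1.68-fold, on a dim probe set. *Glyp* differed by 0.63 (95% interval 0.00 to 1.27), *AGBE* by 0.37 (-0.19 to 0.93), *Glys* by 0.30 (-0.13 to 0.73) and *Pgm1* by 0.06 (-0.46 to 0.57). *Treh* differed by 0.46 (adjusted p = 0.0802) and *Tps1* by 0.62 (adjusted p = 0.407). The call of *UGP* was lost without *sima* hypoxia replicate 1 or 2 (0.66 to 0.68), and without *w1118* hypoxia replicate 1 *Glyp* was called as well.

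In normoxia, *Pgm1* was lower than in *w1118* and was the 1 called of 7 both in *dERR* mutants, at -1.94 (SE 0.28, adjusted p = 0.000265, limma), against 2.29% of all probe sets, and in double-mutants, at -2.03 (SE 0.28, adjusted p = 0.000145), against 0.895%. The *dERR* differences for *Glys* (-0.29), *AGBE* (0.41), *Glyp* (-0.27), *Treh* (0.19), *Tps1* (0.06) and *UGP* (-0.03) had adjusted p values of 0.393 or more. With the tissue covariates *Glyp* was called as well, at -1.43 in *dERR* (adjusted p = 0.00537) and -1.37 in double-mutants (adjusted p = 0.00147), and in *dERR* *AGBE* was at -0.28 (adjusted p = 0.791), *Glys* at -0.85 (adjusted p = 0.149) and *Tps1* at -1.14 (adjusted p = 0.324). The normoxic muscle means of *dERR* (10.26 to 11.10) and *w1118* (8.63 to 9.13) do not overlap, so these *dERR* values cannot tell muscle level and genotype apart. Double-mutants were at -0.89 for *Glys* (adjusted p = 0.0465), -1.05 for *Glyp* (adjusted p = 0.107) and -1.53 for *Tps1* (adjusted p = 0.0742), and the groups did not overlap for 6 of the 7, all but *UGP*, against 38.9% of all probe sets. *AGBE* was at -0.46, *Treh* at 0.25 and *UGP* at 0.06. SAM called *Pgm1*, *Glys*, *Glyp* and *Tps1* in double-mutants and 0 in *dERR*. A fit of the 6 arrays alone called 0 in *dERR*, with 1 at an unadjusted p under 0.05, against 68 of all 18769 probe sets called.

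In *sima* mutants in normoxia, limma called 0 of the 7, against 1.47% of all probe sets, with 2 at an unadjusted p under 0.05, and SAM called 1. *UGP* was at 0.78 (SE 0.17, adjusted p = 0.0129), called by SAM, and *Treh* was at -0.42 (SE 0.19, adjusted p = 0.185). *UGP* was called in limma without double-mutant normoxia replicate 1, *w1118* hypoxia replicate 2, *sima* hypoxia replicate 3 or *dERR* hypoxia replicate 2. *Pgm1* was at -0.02 and *Glyp* at 0.12, while *Glys* (0.33), *AGBE* (0.39) and *Tps1* (0.26) had adjusted p values of 0.425 or more.

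**Figure D3:**
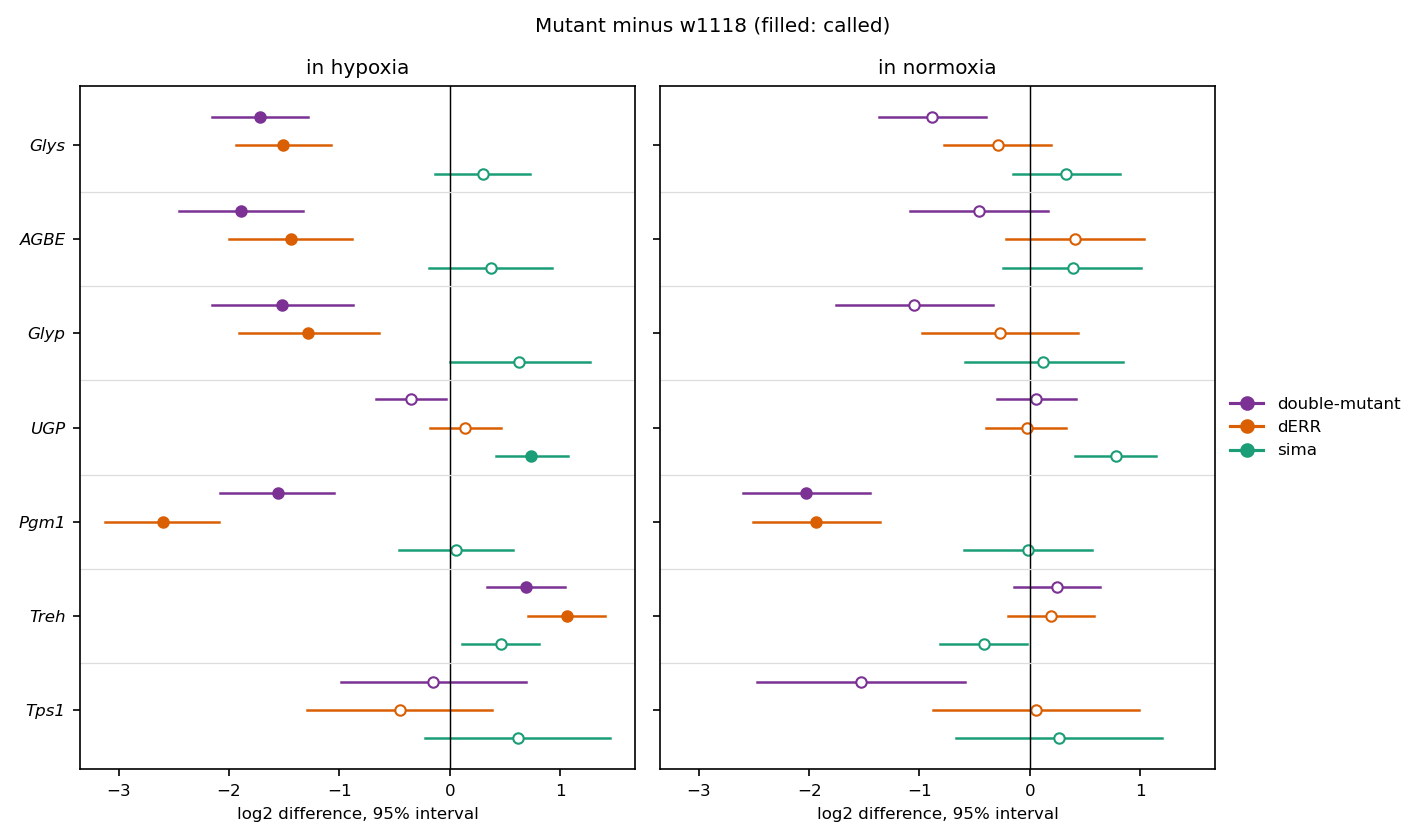
Log2 difference of each mutant minus *w1118* (x axis) for each transcript (y axis) in hypoxia and in normoxia, with limma's 95% interval and filled points for calls. In hypoxia *Glys*, *AGBE*, *Glyp* and *Pgm1* lie at -1.28 or below in double-mutants and *dERR* and at 0.06 or above in *sima*; in normoxia *Pgm1* alone is called.

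The double-mutants were also set against each single mutant in hypoxia. Against *sima*, limma called 5 of the 7, against 1.04% of all probe sets. *AGBE* was lower in double-mutants, at -2.27 (SE 0.30, adjusted p = 7.74e-05), *Glyp* at -2.15 (SE 0.34, adjusted p = 0.00067), *Glys* at -2.02 (SE 0.23, adjusted p = 1.37e-05), *Pgm1* at -1.62 (SE 0.28, adjusted p = 0.00143) and *UGP* at -1.09 (SE 0.17, adjusted p = 0.000669), with no overlap between the groups for these 5 and *Tps1*, against 17.7% of all probe sets. *Tps1* was at -0.76 (adjusted p = 0.524) and *Treh* at 0.23 (adjusted p = 0.711). *Pgm1* lost its call without *sima* hypoxia replicate 1 (-1.52, adjusted p = 0.0121). In a fit of these 6 arrays alone *Glys* and *Pgm1* were called, and *AGBE*, *Glyp* and *UGP* were not. That fit called 51 of all 18769 probe sets.

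Against *dERR*, limma called 0 of the 7, against 1.94% of all probe sets, with 2 at an unadjusted p under 0.05, and SAM called 1. *Pgm1* was higher in the double-mutants on every array, with a difference of 1.04 (SE 0.28, adjusted p = 0.0323), and was called by SAM, in the fit of the 6 arrays alone and in limma without *w1118* hypoxia replicate 1. *UGP* was at -0.49 (adjusted p = 0.132). For the other 5 the intervals ran from -0.69 to 0.28 for *Glys*, -1.07 to 0.18 for *AGBE*, -0.95 to 0.47 for *Glyp*, -0.76 to 0.02 for *Treh* and -0.63 to 1.24 for *Tps1*.

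The profiles of *Glys*, *AGBE* and *Glyp* over the 26 arrays were close to each other. Each profile was centred on its own mean and compared with all 13646 other probe sets that are listed for 1 gene, by the mean absolute log2 difference over arrays. The closest to *Glys* were *Glyp* (0.20) and *AGBE* (0.22), and the closest to *AGBE* were *Glys* (0.22) and *Glyp* (0.26). For *Glyp*, added after the values were seen, they were *Glys* (0.20) and *AGBE* (0.26). Thus the 3 enzymes of the glycogen polymer were each other's nearest profiles on the array, as a description of these 26 arrays, which share groups and larval pools.

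The same measure placed the glycolytic enzymes *Pgi* (0.29) and *Tpi* (0.30) closest to *Pgm1*. *Treh* was closest to *ND-MLRQ*, which encodes a mitochondrial complex subunit (0.19), and to *CG12910* (0.22), and its distance to *AGBE* was 1.01. Once each group's own mean was subtracted, so that only the spread between replicates was left, *Glys* was the closest to *AGBE* (0.11), but *AGBE* was 5th and *Glyp* 633rd in closeness to *Glys*, after *CG31098* (0.09) and *Pgk* (0.11). The closest to *Glyp* were *Argk1* (0.11), which encodes arginine kinase, and the muscle protein gene *Mp20* (0.12). *Glys* was then 54th and *AGBE* 49th in closeness to *Glyp*, and without the 2 arrays that stand apart they were 7th and 12th. Without those arrays *Coq8* was the closest to *AGBE* and *Glys* was 4th, while *AGBE* was 50th and *Glyp* 269th in closeness to *Glys*. The part of muscle RNA in the spread of *Glyp* was not tested beyond the tissue covariates given above.

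**Figure D4:**
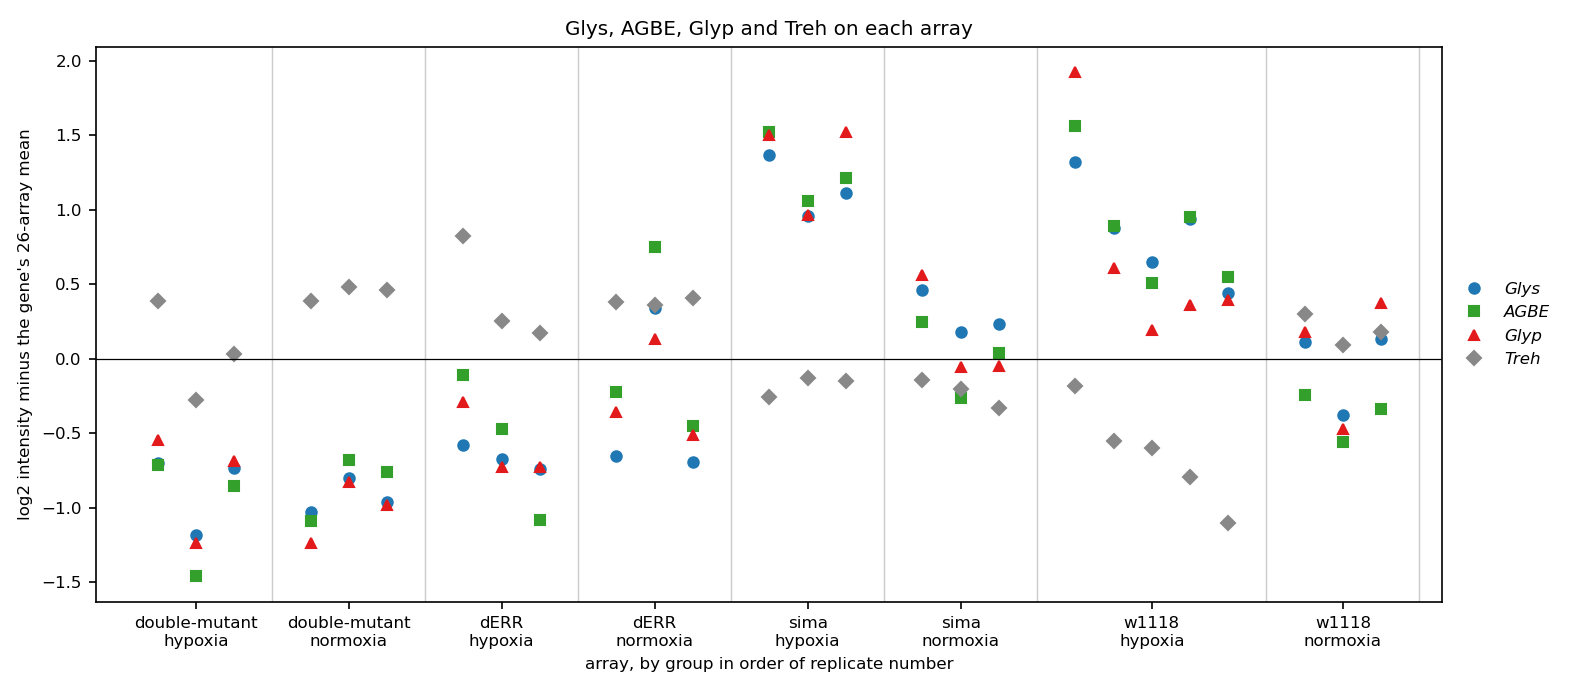
Log2 intensity of *Glys*, *AGBE*, *Glyp* and *Treh* on each of the 26 arrays minus the gene's own 26-array mean (y axis), with arrays in groups by genotype and oxygen level (x axis). The first 3 genes are above their means on all hypoxic *sima* arrays and below them on all double-mutant arrays. *Treh* is below its mean on all *w1118* hypoxia arrays and on all *sima* arrays of both oxygen levels.

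Genes that act around these enzymes were described from a list that covers the primer of glycogen, its debranching enzyme, phosphorylase kinase, the targeting subunits of protein phosphatase 1, the phosphatase step of trehalose synthesis, trehalose transporters, hexokinases, *Pgi*, the adipokinetic hormone and AMP-activated kinase. Of 10 probe sets of 7 glycogen genes, 2 were called higher in hypoxia in *w1118* and none lower, against 5.15% of all probe sets called, with a median change of 0.36, beside 0.06 for all probe sets. They were *Gbs-76A*, a glycogen-targeting subunit of protein phosphatase 1 (1.10, SE 0.27, adjusted p = 0.00781, limma), and *CG7766*, a regulatory subunit of phosphorylase kinase (0.89, SE 0.12, adjusted p = 2.87e-05). *CG7766* was the 1 of 10 called in *sima* (0.83, adjusted p = 0.000358), against 3.6% of all probe sets. It was called in double-mutants (0.89, adjusted p = 0.000125), where 4.72% of all probe sets were called, and was at 0.28 in *dERR* (adjusted p = 0.345). The debranching enzyme *CG9485* was at 0.31 in *w1118* and at -0.88 in double-mutants (adjusted p = 0.0102). The 1 glycogen probe set called lower in hypoxia in double-mutants was that of *CG8475*, also of the phosphorylase kinase regulatory family (-0.91, adjusted p = 0.000161).

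The catalytic subunit of phosphorylase kinase, *PhKgamma*, which activates glycogen phosphorylase, has 3 probe sets. In hypoxia all 3 were lower in *dERR* mutants than in *w1118*, at -0.95 (adjusted p = 5.48e-06), -0.60 (adjusted p = 0.00117) and -0.66 (adjusted p = 0.00633). In double-mutants they were at -0.87 (adjusted p = 8.21e-06), -0.84 (adjusted p = 3.47e-05) and -0.41 (adjusted p = 0.0829), with the last not called. In *sima* they were at 0.08, 0.21 and 0.47 and were not called. Of the 10 glycogen probe sets, 3 were called lower than in *w1118* in hypoxia in *dERR*, all of this 1 gene, against 6.16% of all probe sets called. In double-mutants 3 of the 10 were called lower, against 6.05%. *Gyg*, which encodes the glycogen primer glycogenin, has 2 probe sets and went the other way. Its means in hypoxia were 10.93 and 6.71 in *dERR* and 10.75 and 6.29 in double-mutants, against 9.99 and 5.92 in *w1118*. Neither probe set was called in these comparisons.

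Of 6 probe sets of 5 trehalose genes, 1 was called lower in hypoxia in *w1118* and none higher, against 5.15% of all probe sets called. It was *CG5177*, of the trehalose phosphatase family, at -1.34 (SE 0.22, adjusted p = 0.000272), which was also called in *sima* (-1.18, adjusted p = 0.00415) and was at -0.94 in *dERR* (adjusted p = 0.0550) and -0.82 in double-mutants (adjusted p = 0.0418). The trehalose transporter *Tret1-1* was higher in *dERR* than in *w1118* in hypoxia by 0.71 (adjusted p = 0.00699), the same direction as *Treh*. It was the 1 of the 6 probe sets called there, against 6.16% of all probe sets. Of the 5 hexokinase and isomerase transcripts, *Hex-A* and *Pgi* were called higher in hypoxia in *w1118* (1.32 and 0.93) and in *sima* (1.42 and 1.32), and neither was called in *dERR* (0.32 and -0.42) or double-mutants (0.88 and 0.86). The shares of all probe sets called were 5.15% in *w1118*, 3.6% in *sima*, 0.389% in *dERR* and 4.72% in double-mutants. *Hex-A* and *Pgi* were both lower in *dERR* than in *w1118* in hypoxia, at -0.94 (adjusted p = 0.0026) and -2.71 (adjusted p = 7.62e-08), against 6.16% of all probe sets called.

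**Figure D5:**
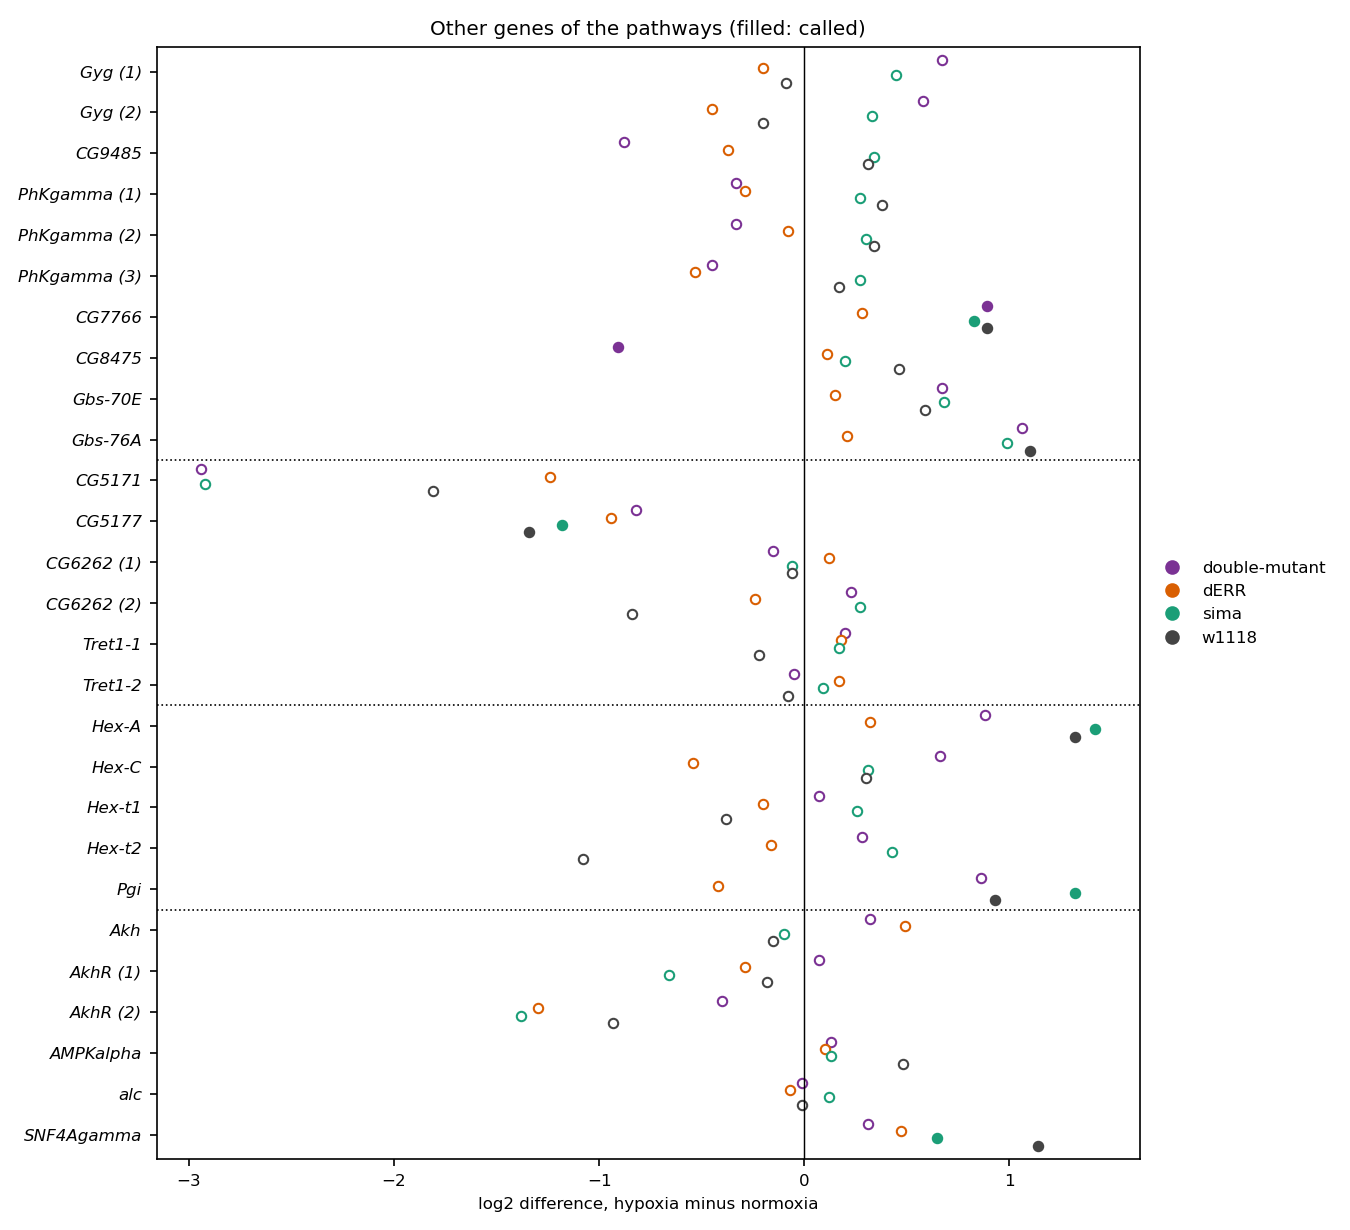
Log2 difference of hypoxia minus normoxia (x axis) for the other genes of glycogen, trehalose, hexose phosphates and hormone or energy signaling (y axis, dotted lines between these lists, numbers in brackets for several probe sets of a gene), by genotype, with filled points for calls. *CG7766* is filled in double-mutants (0.89), *sima* (0.83) and *w1118* (0.89), and no point of *dERR* is filled.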

How the data were processed

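RNA of whole late-L3 larvae was measured on Affymetrix Drosophila Genome arrays. Per the labels, the deposited values are RMA intensities, normalized by the authors. They are linear, from 3.95 to 23239.92, with array medians from 35.7 to 46.13, and their log2 was taken here. The RMA version is not given in the sources used here. Of 18952 probe sets, 183 controls were left out. Groups follow the labels. Gene names come from the platform annotation, brought up to date through RefSeq gene records, and 13647 probe sets are listed for 1 gene. No sequences are printed.

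One model of 8 groups was fitted with limma 3.58.1 in R 4.3.3, with Benjamini-Hochberg adjustment over all 18769 probe sets. SAM, written in R, used a q under 1% and 1.5-fold. The scripts were tested on simulated data. The 7 enzymes are all named, as are other pathway genes called in the comparison described and the 2 closest profiles of each member called in a hypoxic change. *CG9485*, *Gyg*, *CG5171*, *Akh*, *AkhR*, *AMPKalpha*, *Argk1*, *Mp20*, *CG31098*, *Pgk* and *Coq8* were named after their values were seen. The alternatives were array centring, a filter on dim probe sets, fits of only the groups compared, a wider threshold, SAM, tissue covariates, a replicate block, other uses of the *w1118* hypoxia arrays and leaving out arrays. A planned promoter motif search was not run. The members and lists were chosen with earlier results of these data known. Same-numbered arrays deviate together for all 3 numbers only for double-mutants and *sima* in hypoxia (correlations 0.46, 0.52 and 0.43). The labels do not say that the numbers pair arrays. By number, the testis means were 7.98, 8.62 and 9.24 in these double-mutants and 7.54, 8.69 and 9.11 in *sima*. Their part in the correlations was not tested. The values given are those of the model with no block, and the fit with the replicate number as a block called the same 5 enzymes in that comparison.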

Additional observations from a re-analysis of the deposited data

Results flagged for a closer look

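Within *w1118* in hypoxia, the group of 5, the gap of the outermost array to its neighbor was compared with the range of the group. In 7 of 34 probe sets this ratio was above Dixon's 95% value. The 34 probe sets share the same 5 arrays, in which replicates 2 and 3 and replicates 4 and 5 are close. The count of 7 therefore cannot be compared with a rate expected by chance. Replicate 1 was the outermost array for *Glyp* (0.758), *Pgm1* (0.923), *Tret1-2* (0.842) and both probe sets of *Gyg*, which encodes the glycogen primer glycogenin (0.8 and 0.876). Replicate 5 was the outermost for *CG8475* (0.834) and for *alc*, a subunit of AMP-activated kinase (0.804). The muscle mean was 10.27 on replicate 1 and 8.63 to 8.79 on the other arrays of the group. Its part in these values was not tested.

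Of 34 probe sets screened, the hypoxic change of 2 differed between double-mutants and *w1118* by the interaction test in limma. Of all probe sets, 0.48% were called in that test. *CG8475*, a regulatory subunit of phosphorylase kinase, had a difference in change of -1.37 (SE 0.19, adjusted p = 4e-04), with changes of -0.91 in double-mutants and 0.46 in *w1118*. *SNF4Agamma*, the gamma subunit of AMP-activated kinase, had a difference of -0.83 (SE 0.16, adjusted p = 0.00799), with changes of 0.31 in double-mutants and 1.14 in *w1118*.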

How the results depend on the processing

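Counts of called enzymes are given of 7. In fits of only the groups compared, they were 0 for hypoxia in *w1118* (3 in the model of all groups), 1 in *sima* (0), 2 for *dERR* (5), 2 for double-mutants (5) and 0 for *sima* (1) against *w1118* in hypoxia, 0 for *dERR* (1) and 1 for *sima* (0) against *w1118* in normoxia, and for double-mutants in hypoxia 2 against *sima* (5) and 1 against *dERR* (0). Of all 18769 probe sets, the same fits called 531 for hypoxia in *w1118* and 453 in *sima*. Against *w1118* in hypoxia they called 200 for *dERR*, 222 for double-mutants and 264 for *sima*. Against *w1118* in normoxia they called 68 for *dERR* and 1937 for *sima*. For double-mutants in hypoxia they called 51 against *sima* and 74 against *dERR*. SAM called 4 for hypoxia in *sima* and 2 in double-mutants, and against *w1118* in normoxia 0 for *dERR*, 4 for double-mutants and 1 for *sima*, and 1 for double-mutants against *dERR* in hypoxia. Against *w1118* in hypoxia SAM called 4 for double-mutants, without *Treh*. At an adjusted p under 0.05 with no minimum fold, the counts were 3 for hypoxia in *sima*, 2 in double-mutants, 1 for the *dERR* interaction (*AGBE*), 2 for double-mutants and 1 for *sima* against *w1118* in normoxia, and 1 for double-mutants against *dERR*. With muscle, midgut and testis levels as covariates, they were 2 for hypoxia in *sima*, 0 in double-mutants, 1 for the *dERR* and 1 for the double-mutant interaction (*AGBE* in both), and 2 each for *dERR* and double-mutants against *w1118* in normoxia.

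For *UGP* in *sima* against *w1118* in hypoxia, the 1 call became 0 when array medians were centred, when the close *w1118* hypoxia arrays (replicate 2 with 3 and 4 with 5) were averaged and when the dimmest 25% of probe sets, which holds *UGP*, was left out. The last raised hypoxia in *sima* to 1 and lowered double-mutants against *sima* to 4, since *UGP* was no longer tested. Averaging the close arrays also lost *Treh* in double-mutants against *w1118* in hypoxia. Centring moved the median change of all probe sets in *w1118* to 0.21, against 0.06 uncentred. Without *w1118* hypoxia replicate 1 and *dERR* normoxia replicate 2, chosen after seeing the data, the counts were 4 for hypoxia in *sima*, 2 in double-mutants, 2 for *sima* against *w1118* in hypoxia, 3 for double-mutants against *w1118* in normoxia and 1 for double-mutants against *dERR*. The shares of all probe sets called without these arrays are not given. With *w1118* hypoxia replicates 1 to 3 only, the calls lost were *Treh* in *w1118* and in double-mutants against *w1118*. With the replicate number as a block, the count for *sima* against *w1118* in normoxia was 1 (*UGP*), *Treh* lost its call in double-mutants against *w1118* in hypoxia, and no other call of the 7 changed. Over 12 comparisons the correlations of same-numbered arrays ran from -0.53 to 0.52, and the numbers were not taken as pairs in the values given.

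Leaving out each of the 26 arrays in turn, the counts ran from 1 to 3 for hypoxia in *w1118*, 0 to 3 in *sima*, 0 to 2 in double-mutants, 3 to 5 for *dERR* and 4 to 5 for double-mutants and 0 to 2 for *sima* against *w1118* in hypoxia, 0 to 1 for *sima* against *w1118* in normoxia, 4 to 5 for double-mutants against *sima* and 0 to 1 against *dERR*. In hypoxia in *dERR* and in the 3 interactions they were 0, and for *dERR* and double-mutants against *w1118* in normoxia 1, each time. No called difference changed sign under any alternative.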

Other observations

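Among the hormone and energy genes, *SNF4Agamma* was the 1 of 6 probe sets called in hypoxia in *w1118* (1.14, SE 0.10, adjusted p = 2.46e-07, limma), against 5.15% of all probe sets. It was also the 1 called in *sima* (0.65, adjusted p = 0.00108), against 3.6%. It was at 0.47 in *dERR* (adjusted p = 0.0384) and 0.31 in double-mutants (adjusted p = 0.102). *AMPKalpha*, the catalytic subunit, had a change of 0.48 in *w1118* (adjusted p = 0.00438), under the minimum fold, and of 0.10 to 0.13 in the mutants. *Akh*, which encodes the hormone that mobilizes glycogen and lipid, was at -0.15 in *w1118* (adjusted p = 0.762) and was not called in any genotype. Its receptor *AkhR* has 2 probe sets that differed in size, at -0.18 and -0.93 in *w1118* and -0.66 and -1.38 in *sima*, with neither called.

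*CG5171*, of the trehalose phosphatase family like *CG5177*, had larger changes than any of the 7 enzymes, at -2.94 in double-mutants, -2.92 in *sima*, -1.24 in *dERR* and -1.81 in *w1118*, but its SE was 1.02 to 1.14 and it was not called (adjusted p = 0.122 to 0.694).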
